A study of Arabidopsis thaliana with 8 samples.

Results

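The question addressed here was whether seedlings that overexpress HRA1 respond to oxygen deprivation by a different amount than wild type seedlings, gene by gene. HRA1 is a trihelix transcription factor whose own gene is switched on by hypoxia. For each probe set of the Arabidopsis ATH1 array, the hypoxia response was the mean level after hypoxia minus the mean level in air, and the interaction was the response of the overexpressing plants minus the response of the wild type. All 8 arrays of the series entered this comparison, 2 in each of 4 groups, and 22644 of the 22810 probe sets were tested. Values are signal log2 ratios (SLRs) or levels in log2 units, so that an interaction below 0 means a smaller rise or a larger fall in the overexpressing plants.

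Col-0, the wild type, was sampled after 2 h of non-stress treatment in air (2NS) and after 2 h of hypoxia under 99.9% argon (2HS), and so were the 35S:HRA1:FLAG transgenics called OE-HRA1. All were seedlings aged 7 d. The OE-HRA1 arrays of each treatment came from lines #1 and #2, with 1 array per line, and each line therefore supplied both an air and a hypoxia array. The transgene is driven by the viral 35S promoter, which is active in most tissues, whereas the native gene is hypoxia-induced. The source field of the Col-0 2HS arrays names air, against their titles and treatment fields, and the titles were followed. The labels do not say whether the Col-0 replicates were separate plantings, so the p-values measure the spread between these arrays only. The 2 arrays of a group correlated at 0.994 to 0.997, with a median absolute difference of 0.09 to 0.12 log2 units. RCA, the Rubisco activase of green tissue, read 14.55 to 14.59 and the root glucosidase gene PYK10 read 13.54 to 14.28 over the 8 arrays. The RCA values lie near the highest of any probe set (14.81), so they say little about the share of green tissue.

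In plants, hypoxia is sensed through group VII ethylene response factors (ERFs), which are destroyed through the N-degron pathway while oxygen is present and accumulate when it runs out. They then switch on genes for sucrose breakdown, glycolysis and ethanolic fermentation, which keep ATP production going without respiration, and genes that restrain the response itself. A set of such genes induced in many cell types is called the core hypoxia response.

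HRA1 itself was read first, since its probe set detects the transgene as well as the native transcript. In Col-0, HRA1 (AT3G10040) read 7.20 and 7.00 in air, against 11.74 and 12.10 under hypoxia. The OE-HRA1 values, with line #1 before line #2, were 12.98 and 13.09 for air and 12.19 and 12.02 for hypoxia. The overexpressing plants thus entered hypoxia with HRA1 already above the hypoxic wild type level, and under hypoxia the genotypes differed by an SLR of only 0.18. Its interaction of -5.75 (SE 0.19, adjusted p = 2.41e-05) goes with this high starting level, and the probe set does not separate the transgene from the native transcript, so the native response in OE-HRA1 is not given here. HRA1 was therefore left out of the counts and medians below where this is stated.

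A small set of hypoxia inductions was smaller in OE-HRA1, and 1 response was called larger. An interaction beyond 1 or -1 with an adjusted p under 0.01 counted as called. Calls lay below 0 for 37 probe sets (0.163% of those tested) and above 0 for 1 probe set (0.00442%). All 37 had a response above 0 in Col-0, which in OE-HRA1 was smaller or, for HRA1 and 5 others, below 0. The 1 probe set above 0 had a response above 0 in both genotypes. With limma, 0 probe sets whose response averaged over the genotypes was below 0 were called. At an unadjusted p under 0.05, limma gave 732 interactions below 0 and 564 above 0. Together these were 1296 of 22644, and such a p also arises at a rate of 0.05 where no interaction exists. At an adjusted p under 0.05 and the same size, there were 58 below 0 (0.256%) and 3 above (0.0132%). The air and hypoxia arrays of OE-HRA1 are paired by line. With the line and the Col-0 replicate number as a replicate block within each genotype, 60 were called below 0 and 5 above. Of the 38 calls, 37 were kept with this block, and the exception was AT4G25620 (adjusted p = 0.0117).

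**Figure D1:**
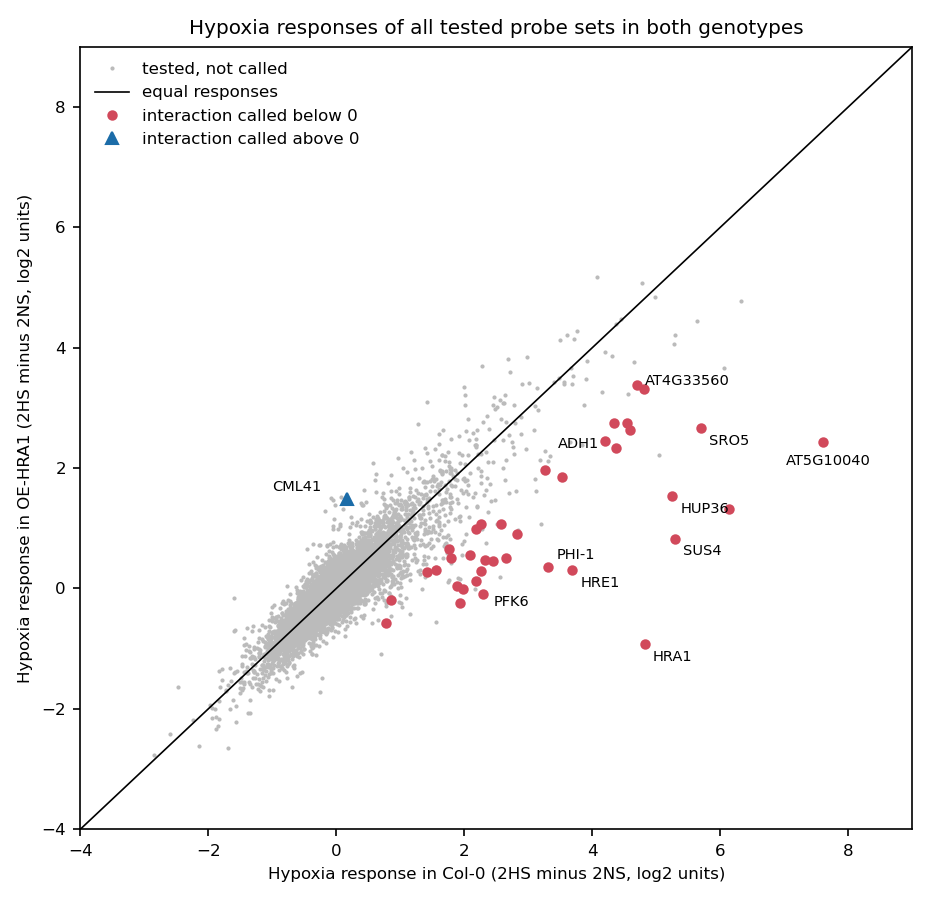
Hypoxia response in OE-HRA1 against the response in Col-0 for 22644 probe sets (SLRs in log2 units, means of 2 arrays per group), with the 37 interactions called below 0 as red circles, the 1 called above 0 as a blue triangle and equal responses as a line. The red circles lie to the lower right, at Col-0 responses of 0.78 to 7.61, and nothing is called among the repressed probe sets at the lower left.

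Apart from HRA1, the 36 probe sets called below 0 had responses from 0.78 to 7.61 in Col-0, with a median of 2.61. In OE-HRA1 their responses ran from -0.58 to 3.38, with a median of 0.74. The median probe set kept 27.5% of its Col-0 log2 response (quartiles 12.3% and 48.6%). In OE-HRA1 alone, 15 of the 36 were still called higher under hypoxia, against 1.96% of all probe sets, and 34 of the 36 were so in Col-0, against 2.02%. The response of 5 of them lay below 0 in OE-HRA1. The 4 possible differences of a hypoxia and an air array never overlapped between genotypes for these 36, which held for 18.0% of all probe sets. The 36 were chosen for their interaction on these same arrays, which favours a lack of overlap and a call in Col-0. The shares over all probe sets are therefore no matched background.

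The difference lay in the hypoxia arrays. Under hypoxia the 36 probe sets stood lower in OE-HRA1 by a median SLR of -1.92 (-5.30 to -0.65), and 33 of them were called lower, against 0.627% of all. The choice by interaction favours such calls. In air the median difference was -0.04 (-1.43 to 1.09) and 0 of the 36 were called, against 0.11% of all. In air 31 of the 36 lay within 0.5 log2 units of Col-0. The exceptions were lower starting levels in OE-HRA1 for PHI-1 (SLR -1.43), ADH1 (-0.68) and HUP6 (-0.68) and higher ones for HUP36 (1.09) and AT5G42200 (0.55). Because the air arrays enter the interaction, a higher starting level adds to it, and HUP36 rose to 8.00 and 7.94 from an elevated 6.12 and 6.76.

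**Figure D2:**
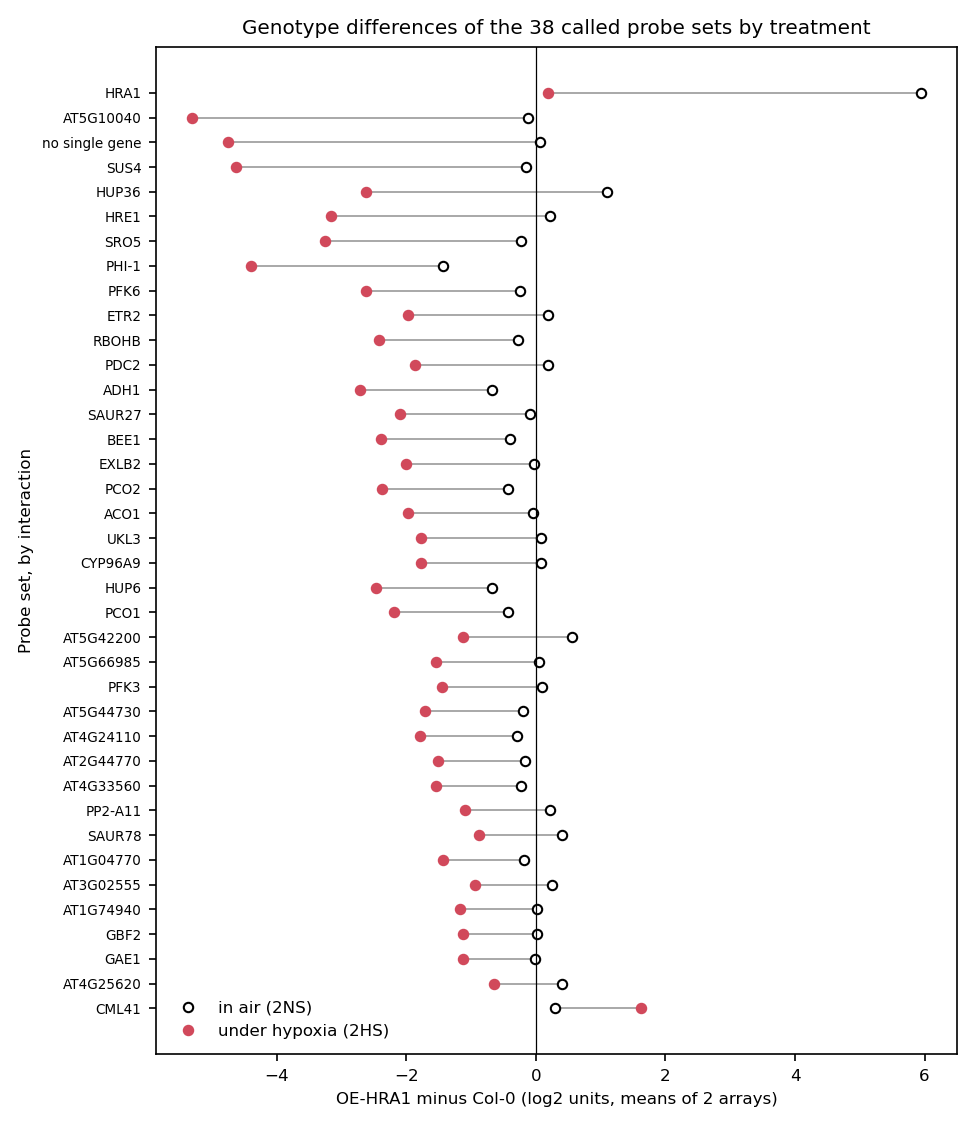
OE-HRA1 minus Col-0 (log2 units, means of 2 arrays) in air, open circles, and under hypoxia, filled circles, for the 38 called probe sets in the order of their interaction. Most open circles lie near 0 and most filled circles between -1 and -5. For HRA1 the air value lies far from 0 and the hypoxia value near it, with 5.94 in air and 0.18 under hypoxia. Only CML41 has its filled circle to the right of the open one, with 0.30 in air and 1.63 under hypoxia.

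The probe sets were called on the mean of both lines, and both lines are set against the same Col-0 response, so a shared sign of the lines was fixed by the choice. Taken line by line, the interaction of the 36 ran from -5.87 to -0.96 in line #1 and from -4.64 to -1.13 in line #2. It lay below -1 for 35 of them in line #1 and for 36 in line #2. The median absolute difference between the lines was 0.19, and the largest was 1.38, at AT5G10040. Calls nevertheless rest on few arrays. Leaving out the Col-0 2NS array of replicate 1 or 2 kept 10 or 12 of the 38 calls, and the Col-0 2HS array of replicate 1 or 2 kept 18 or 21. Leaving out the OE-HRA1 2NS array of line #1 or #2 kept 7 or 6, and the OE-HRA1 2HS array of line #1 or #2 kept 8 or 10. Without line #1 or without line #2 altogether, 1 call was kept, that of AT5G10040 both times. All 38 kept their sign in each of these fits. The calls of HRA1, SUS4, SRO5, PFK6 and the probe set 267024_s_at, which could be tied to no gene here, were the 5 that held without any 1 array. The calls of 13 were kept in 0 of the 8 fits, namely ETR2, ACO1, SAUR27, SAUR78, UKL3, GBF2, GAE1, PP2-A11, AT4G24110, AT4G33560, AT1G04770, AT1G74940 and AT4G25620. Quantile normalization of the deposited values kept 30 of the 38 calls and ended those of ADH1, ETR2, RBOHB, SAUR27, PFK3, GBF2, AT4G24110 and AT1G74940. Where a gene is described below with an adjusted p and a further value introduced by "at most", the latter is the highest over the 8 fits with 1 array left out.

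Among enzymes that feed and run ethanolic fermentation, SUS4, PFK6, PFK3, PDC2 and ADH1 had called interactions, and PDC1, LDH and SUS1 did not. SUS4, a sucrose synthase that cleaves sucrose without spending ATP, read 6.31 and 6.63 in Col-0 air and 11.90 and 11.63 in Col-0 hypoxia. OE-HRA1 had 6.46 and 6.16 in air and 7.03 and 7.25 under hypoxia. The groups overlapped in air, and the OE-HRA1 hypoxia arrays stayed near them: a 39.2-fold induction became 1.78-fold, with an interaction of -4.46 (SE 0.22, adjusted p = 0.000172, at most 0.00331 with 1 array left out). PFK6, a phosphofructokinase at the entry of glycolysis, rose from 8.27 and 8.31 to 10.55 and 10.62 in Col-0 and went from 8.18 and 7.92 to 7.96 and 7.96 in OE-HRA1. Its response was 2.30 in Col-0 and -0.09 in OE-HRA1, an interaction of -2.39 (SE 0.14, adjusted p = 0.000497, at most 0.00855). The related PFK3 had responses of 2.1 and 0.55 and an interaction of -1.54 (adjusted p = 0.00868, at most 0.0668).

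The pyruvate decarboxylases and alcohol dehydrogenase, which turn pyruvate into ethanol and regenerate NAD+, differed among themselves. PDC2 read 10.24 and 10.46 in Col-0 air, 12.55 and 12.51 in Col-0 hypoxia, 10.54 and 10.54 in OE-HRA1 air and 10.54 and 10.78 in OE-HRA1 hypoxia. The OE-HRA1 arrays under hypoxia hardly left the air levels, and the interaction was -2.06 (SE 0.15, adjusted p = 0.00202, at most 0.0239). ADH1 read 8.57 and 9.11, then 13.22 and 13.19 in Col-0, and 8.21 and 8.11, then 10.44 and 10.54 in OE-HRA1. It kept 53.4% of its log2 response, with an interaction of -2.04 (SE 0.22, adjusted p = 0.00868, at most 0.065). PDC1 differed already in air: it read 7.29 and 7.63 in Col-0 and 5.06 and 5.56 in OE-HRA1 there, and rose to 13.48 and 13.56 and to 8.68 and 9.26. Its interaction of -2.40 (SE 0.31) was not called (adjusted p = 0.0236) but is called with the replicate block within each genotype (adjusted p = 3.11e-04). LDH, which makes lactate, and SUS1, another sucrose synthase, had interactions of -1.16 and -1.19 that are called only with that block (adjusted p = 0.0236 and 0.0351 without it, and 0.00899 for both with it). GAPC2, a glycolytic dehydrogenase used throughout the plant, read 14.23 to 14.38 on all arrays, near the highest value of any probe set (14.81), which limits what its levels can show.

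Genes of the oxygen sensing loop showed the same pattern to different degrees. HRE1, a group VII ERF that is itself hypoxia-induced, read 7.15 and 6.78 in Col-0 air and 10.81 and 10.50 in Col-0 hypoxia. The OE-HRA1 lines had 7.32 and 7.05 in air and 7.22 and 7.77 under hypoxia, where line #1 stood below its air level. The interaction was -3.38 (SE 0.29, adjusted p = 0.00404, at most 0.0281). PCO1 and PCO2 encode the plant cysteine oxidases, which oxidize the N terminus of group VII ERFs and so mark them for destruction. PCO1 rose from 8.62 and 8.90 to 12.86 and 13.06 in Col-0 and from 8.36 and 8.31 to 10.75 and 10.80 in OE-HRA1. PCO2 rose from 8.41 and 8.29 to 12.78 and 13.09 and from 7.85 and 7.99 to 10.48 and 10.64. Unlike HRE1, both oxidase genes kept 58.2% and 57.5% of their log2 response and were called higher in OE-HRA1 too. Their interactions were -1.75 and -1.95 (SE 0.16 and 0.17, adjusted p = 0.00425 and 0.00404, at most 0.0351 and 0.0327).

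**Figure D3:**
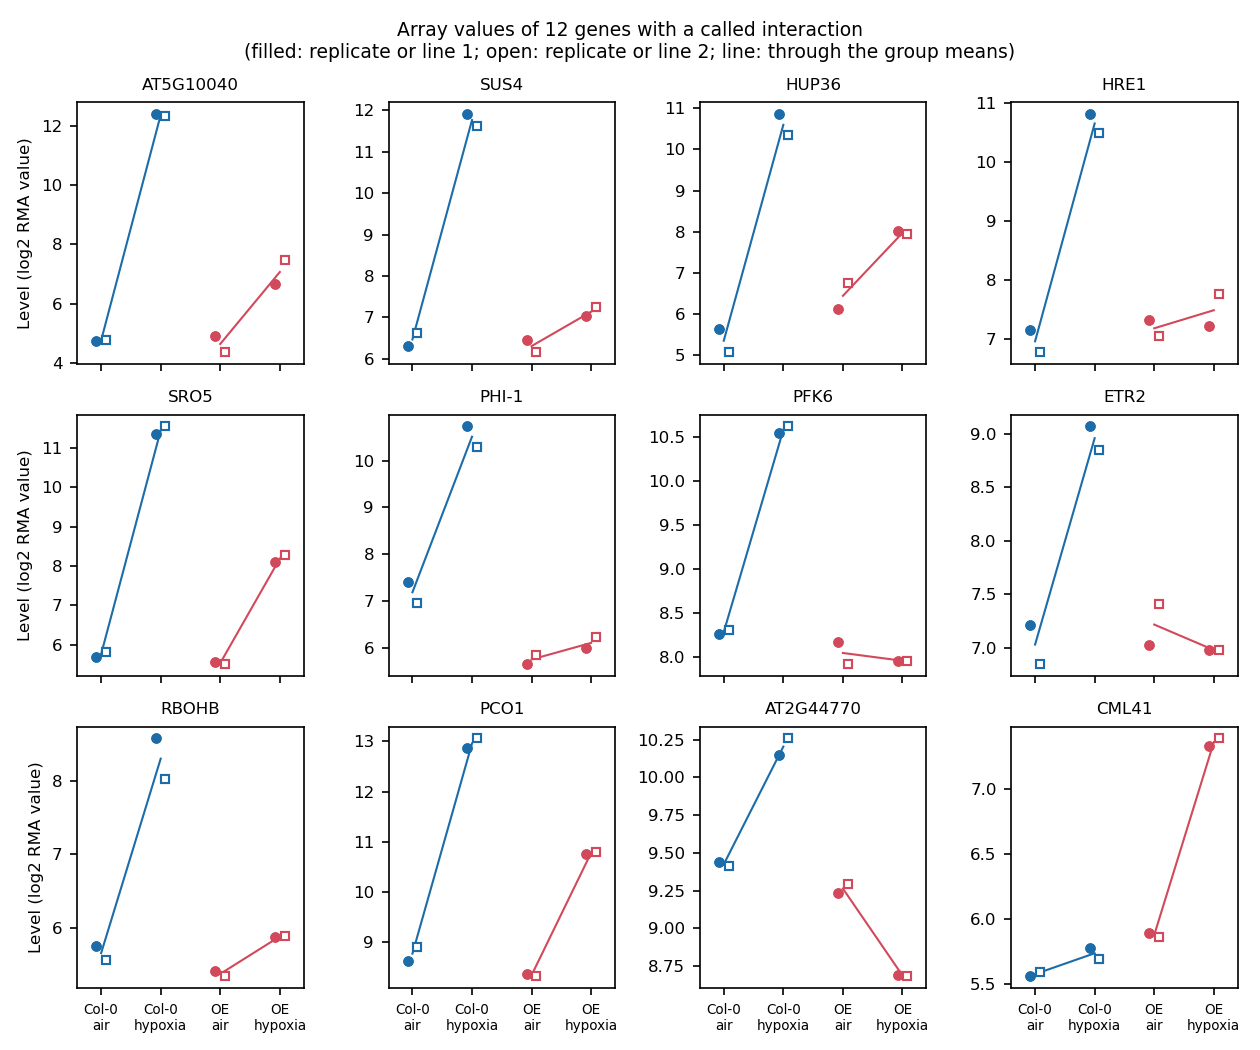
Level (log2 RMA value) on each array for 12 genes with a called interaction, with Col-0 in blue and OE-HRA1 in red, filled circles for replicate or line 1, open squares for replicate or line 2, and lines through the group means of 2 arrays. Axes do not start at 0 and differ between panels. For 11 genes the blue line climbs further than the red one, for AT2G44770, PFK6 and ETR2 the red line descends, and for CML41 the red line climbs far more than the blue one.

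Ethylene synthesis and perception each had 1 affected gene. ACO1, an ACC oxidase that carries out the last step of ethylene synthesis, went from 7.49 and 7.19 to 10.24 and 10.10 in Col-0 and from 7.41 and 7.17 to 8.09 and 8.29 in OE-HRA1 (interaction -1.93, SE 0.19, adjusted p = 0.00623, at most 0.0426). ETR2, an ethylene receptor that represses signalling until ethylene binds it, went from 7.22 and 6.85 to 9.07 and 8.85 in Col-0. In OE-HRA1 it went from 7.03 and 7.41 to 6.98 and 6.98, so its rise was lost (interaction -2.16, SE 0.22, adjusted p = 0.00827, at most 0.065). Of the 8 ethylene genes with an assigned probe set these were the 2 called. The receptor genes ERS1 and ERS2 had responses below 0 in both genotypes, of -1.24 and -1.43 for ERS1 and of -0.36 and -0.93 for ERS2 in Col-0 and OE-HRA1.

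Among genes of stress signalling, SRO5, a relative of the oxidative stress regulator RCD1, read 5.69 and 5.82 in Col-0 air, 11.35 and 11.55 in Col-0 hypoxia, 5.56 and 5.50 in OE-HRA1 air and 8.10 and 8.28 in OE-HRA1 hypoxia. The rise remained large in OE-HRA1 but kept only 46.7% of its log2 size (interaction -3.03, SE 0.15, adjusted p = 0.000172, at most 0.00331). RBOHB, an NADPH oxidase that makes superoxide, went from 5.74 and 5.56 to 8.57 and 8.02 in Col-0 and from 5.40 and 5.34 to 5.87 and 5.89 in OE-HRA1. Its interaction was -2.14 (SE 0.23, adjusted p = 0.00868, at most 0.0681). Of the 10 measured genes listed for calcium, ROS and early stress, 0 were called. The better known oxidase gene RBOHD, the calcium sensor gene CML38 and the transcription factor gene WRKY22 had interactions of -1.28, -1.55 and -1.49 at adjusted p values of 0.0354, 0.0203 and 0.0351, and each is called with the replicate block within each genotype (0.00382, 0.00216 and 0.0032). WRKY22 had responses of 3.12 in Col-0 and 1.62 in OE-HRA1. The early stress regulators ZAT12, ZAT10, WRKY33 and ERF105 had interactions of -0.27, 0.02, -0.18 and -0.15, with SEs of 0.11 to 0.27, on responses of 3.48 to 4.20 in Col-0. The genotype difference was at most the size of its SE for these 4 genes.

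Genes of growth and the cell wall were also among the 37. PHI-1, a gene first known as phosphate-induced and associated with growth, read 7.42 and 6.97 in Col-0 air, 10.73 and 10.29 in Col-0 hypoxia, 5.66 and 5.87 in OE-HRA1 air and 6.0 and 6.23 in OE-HRA1 hypoxia. It was low in OE-HRA1 in both treatments, and its response was 3.31 in Col-0 and 0.35 in OE-HRA1 (interaction -2.96, SE 0.27, adjusted p = 0.00425, at most 0.0351). BEE1, a basic helix-loop-helix factor of brassinosteroid response, rose from 6.15 and 6.26 to 8.22 and 8.16 in Col-0 and stayed between 5.57 and 6.01 on the 4 OE-HRA1 arrays. The small auxin-induced genes SAUR27 and SAUR78 had Col-0 responses of 2.45 and 1.79 and OE-HRA1 responses of 0.45 and 0.51. SAUR28, the gene next to SAUR27, had an interaction of -0.86 (adjusted p = 0.37). These are close members of a gene family, and whether their probes read each other's transcripts was not tested. GAE1, a UDP-glucuronate epimerase that supplies pectin synthesis, had responses of 1.76 and 0.66, and EXLB2, annotated as an expansin-like gene, had 2.25 and 0.29. The interactions of BEE1, SAUR27, SAUR78, GAE1 and EXLB2 were -1.99, -2.0, -1.28, -1.10 and -1.97, with adjusted p values of 0.00573 to 0.00999. With 1 array left out, the highest adjusted p was 0.0452 for BEE1, 0.0912 for SAUR27 and 0.0521 to 0.0668 for the other 3.

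The transcription factor genes in the set besides HRA1, HRE1 and BEE1 were few. GBF2, a bZIP factor that binds G-box elements, had responses of 1.42 in Col-0 and 0.27 in OE-HRA1 (interaction -1.15, SE 0.12, adjusted p = 0.00868, at most 0.0679). LBD41, a LOB-domain factor and 1 of the most strongly induced genes in both genotypes, was not in the set. It read 8.99 and 8.84 in Col-0 air, 13.83 and 13.98 in Col-0 hypoxia, 7.90 and 7.58 in OE-HRA1 air and 12.49 and 12.67 in OE-HRA1 hypoxia. OE-HRA1 was lower in both treatments by nearly the same amount, and the interaction was -0.14 (SE 0.18). AT3G02555, the gene next to it in the RefSeq gene order, did have a called interaction, of -1.19 (SE 0.11, adjusted p = 0.00404, at most 0.0327), on responses of 2.27 and 1.07.

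Some of the largest interactions were at genes of unknown function or at a probe set without a gene name. AT5G10040, of unknown function, read 4.75 and 4.77 in Col-0 air and 12.39 and 12.35 in Col-0 hypoxia, a response of 7.61. Its air level lies near the low end of the arrays, whose lowest value was 3.52, so the true change may be larger. OE-HRA1 started at 4.92 and 4.36 and reached 6.66 and 7.48 under hypoxia, a response of 2.43. The lines differed here more than anywhere else in the set, with responses 1.38 log2 units apart, but both stayed far below Col-0 (interaction -5.18, SE 0.36, adjusted p = 0.00148, at most 0.0103). The probe set 267024_s_at behaved similarly, with 5.34 and 5.39, then 11.71 and 11.31 in Col-0, and 5.47 and 5.40, then 6.60 and 6.90 in OE-HRA1 (interaction -4.83, SE 0.20, adjusted p = 9.77e-05, at most 0.00237). HUP36 (AT1G19530), a hypoxia-responsive unknown protein gene, had an interaction of -3.72 (SE 0.36, adjusted p = 0.006, at most 0.0609) that includes its higher air level in OE-HRA1.

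AT2G44770, annotated as related to the animal engulfment protein ELMO1, had responses of opposite sign. It read 9.44 and 9.41 in Col-0 air and 10.15 and 10.26 in Col-0 hypoxia, but 9.23 and 9.29 in OE-HRA1 air and 8.69 and 8.68 in OE-HRA1 hypoxia. The responses of 0.78 in Col-0 and -0.58 in OE-HRA1 were both under the size threshold, while their difference passed it (interaction -1.36, SE 0.11, adjusted p = 0.00293, at most 0.0312). AT4G25620 had responses of 0.86 in Col-0 and -0.19 in OE-HRA1 (interaction -1.05, adjusted p = 0.00868, at most 0.0668).

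The other 11 called probe sets had interactions from -1.86 to -1.19, and with 1 array left out their highest adjusted p values ran from 0.0146 to 0.065. UKL3, a uridine kinase-like enzyme, and CYP96A9, a cytochrome P450, kept 20.1% and 2.11% of their log2 responses. AT1G04770 kept 20.0%, AT5G44730, annotated as a haloacid dehalogenase-like hydrolase, 41.2%, and AT1G74940 45.6%. The RING finger gene AT5G42200, the kelch repeat gene HUP6 (AT3G27220), the phloem lectin gene PP2-A11, AT5G66985, AT4G24110 and AT4G33560 kept 52.6% to 72.0%, and all 6 were still called higher in OE-HRA1. Over the 36 probe sets, 20 are marked as core hypoxia genes in the study's supplement and 16 are not. The median share of the log2 response that was kept was 43.4% for the 20, with a median Col-0 response of 3.86, and 19.2% for the 16, with a median Col-0 response of 2.04. These shares describe probe sets chosen for their interaction, and their difference was not tested. A call needs an interaction below -1, so a smaller Col-0 response caps the share that can be kept at a lower value. The 2 medians therefore do not show that core genes were less affected.

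CML41, a calmodulin-like calcium sensor gene, was the only response called larger. It read 5.56 and 5.59 in Col-0 air, 5.78 and 5.69 in Col-0 hypoxia, 5.89 and 5.86 in OE-HRA1 air and 7.34 and 7.39 in OE-HRA1 hypoxia. It was low in 3 groups, though OE-HRA1 stood above Col-0 by an SLR of 0.30 in air, not called. The OE-HRA1 hypoxia arrays stood furthest apart: a response of 0.16 became 1.49 (interaction 1.33, SE 0.11, adjusted p = 0.00293, at most 0.0312). Among interactions above 1, the next by adjusted p were AT2G04460, annotated as a pseudogene, with an interaction of 1.51 (adjusted p = 0.035, called with the replicate block within each genotype at 0.00223), and AT2G32020, with 1.02 (adjusted p = 0.0372). These 2 were chosen after their values were seen. AT2G32020 read 6.28 and 6.31, then 8.25 and 8.38 in Col-0, and 6.11 and 6.31, then 9.16 and 9.35 in OE-HRA1. Other interactions above 1 were not called without the replicate block. With the block within each genotype, M17 (1.42), GSTU9 (1.21) and SR1 (1.09) were called too, at adjusted p values of 0.00428, 0.00475 and 0.00701. Without the block, their adjusted p values were 0.894, 0.148 and 0.0879. BHLH101, an iron deficiency regulator, had an interaction of 1.68 (SE 0.40, adjusted p = 0.275), and PR1, a marker of salicylic acid signalling, 1.59 (SE 0.71, adjusted p = 0.87). SPX1, a phosphate sensor gene, had 1.10 (SE 0.25, adjusted p = 0.249), with OE-HRA1 lower by an SLR of -1.16 in air and differing by -0.07 under hypoxia. The line-to-line difference was large for PR1, which read 8.36 in line #1 and 9.87 in line #2 under hypoxia. Of 4 listed markers of seed reserves, 2 were measured under an assigned name. Both were called higher in the overexpressing plants under hypoxia (0.305% of all probe sets), and CRU3 also in air (0.0397%). Both were named only through the study's supplement, which lists differentially expressed genes, so these shares are no matched background. CRU3, a seed storage globulin gene, read 8.00 and 8.47, then 7.80 and 7.74 in Col-0, and 10.04 and 10.44, then 10.63 and 11.17 in OE-HRA1 (interaction 1.12, adjusted p = 0.441). The oil body gene OLEO1 differed by 0.96 in air and 1.69 under hypoxia (interaction 0.73, adjusted p = 0.895). Their part in the results was not tested.

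Among probe sets repressed on average, most interactions were near 0. Averaged over the genotypes, 463 probe sets were called higher under hypoxia (2.04%) and 217 lower (0.958%). This average was used to sort the probe sets, and it moves toward 0 where a response is lost in OE-HRA1. ETR2, BEE1, CYP96A9, GBF2 and AT1G04770, all called higher in Col-0, had an average under 1 and are not among the 463. Of the 217, 0 had a called interaction, by limma, at either adjusted threshold, and 32 had an unadjusted p under 0.05, with 23 below 0 and 9 above. For 194 of the 217 (89.4%) the interaction lay within 0.5 of 0, and for 0 it went beyond 1. Their median interaction was -0.11, with 144 below 0, against a median of 0.02 and 46.1% below 0 over all probe sets. In Col-0 the median response of the 217 was -1.15, and in OE-HRA1 it was -1.28. A sorting that does not lose such genes takes the 307 probe sets called lower in Col-0, in OE-HRA1 or in both (1.36%). Of these, 268 (87.3%) had an interaction within 0.5 of 0, 2 lay below -1, 1 lay above 1 and 0 were called, with 45 below 0 and 16 above 0 at an unadjusted p under 0.05. The 1 above 1 was CYP79B2, an enzyme of indole glucosinolate and camalexin synthesis, with responses of -1.60 in Col-0 and -0.16 in OE-HRA1 (interaction 1.44, adjusted p = 0.237). MYB34, a regulator of indole glucosinolate genes, had responses of -2.47 and -1.64 (interaction 0.84, adjusted p = 0.263). AT5G10580 was 1 of the 2 below -1, with responses of 0.69 and -1.09 (interaction -1.78, adjusted p = 0.035), and the other had no gene name. CYP79B2, MYB34 and AT5G10580 were chosen after their values were seen. Of the 307, 254 were called lower in OE-HRA1 and 189 in Col-0. A call in OE-HRA1 favours interactions below 0, and a call in Col-0 those above 0. For the 189 the median interaction was 0.03, with 13 below 0 and 16 above 0 at an unadjusted p under 0.05 by limma. The lean of the 307 below 0 thus depends on the genotype used for the sorting. The gene with the lowest p among the 217 was AT5G11070, with responses of -0.61 and -1.46 (interaction -0.85, adjusted p = 0.122). AT3G53250, a gene of the SAUR family, had responses of -2.85 in Col-0 and -2.76 in OE-HRA1. The flagellin receptor gene FLS2 had responses of -2.61 and -2.42. AT5G28300, which encodes the trihelix factor GT2L, went from 6.95 and 7.34 to 5.17 and 5.18 in Col-0 and from 7.24 and 6.88 to 5.18 and 5.06 in OE-HRA1. These 3, with AT5G57760 and AT5G58900, were the most repressed genes with an interaction within 0.2 of 0, a choice that fixes their likeness.

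Most induced responses also had an interaction near 0. Of the 463 probe sets called higher on average, 272 (58.7%) had an interaction within 0.5 of 0, 66 lay below -1 and 15 above 1, and 30 were called below 0 and 0 above 0. Their median interaction was -0.05 and 238 lay below 0. Among the 585 called higher in either genotype (2.58%), 332 (56.8%) lay within 0.5 of 0, 79 below -1 and 20 above 1. The sign of this median is not stable: it was 0.03 after each array was centred on its median. AT1G72920, a gene annotated with the TIR domain of plant immune receptors, read 4.98 and 4.87 in Col-0 air and 9.41 and 9.35 in Col-0 hypoxia. The OE-HRA1 arrays gave 4.89 and 5.09, then 9.49 and 9.45, so that the 4 hypoxia arrays were close together. ERF105, an ethylene response factor gene, rose by 3.93 and 3.77, GAT1_2.1, a glutamine amidotransferase-like gene, by 3.67 and 3.66, and CNI1, a ubiquitin ligase of the carbon to nitrogen balance, by 3.71 and 3.54. These 4 and LBD41 were chosen as the most induced genes with an interaction within 0.2 of 0. Col-0 responses of more than 3 log2 units occurred both with a called interaction and with one within 0.2 of 0. The choice fixes the likeness of the responses but not of the levels. LBD41 was called lower in OE-HRA1 both in air (SLR -1.18) and under hypoxia (-1.32).

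Sorted by the averaged response, the spread of the interaction widened with induction, and a low tail appeared. Among the 10343 probe sets with an averaged response between 0 and 0.5, the quartiles of the interaction were -0.06 and 0.14. Between 1 and 2 they were -0.46 and 0.30 (n = 339). Between 2 and 3 they lay to both sides, at -0.45 and 0.51 (n = 78, median 0.13). Above 3 they were -1.51 and 0.03 (n = 52, median -0.36). Above 3, 12 of the 52 were called below 0. Core hypoxia genes made up much of this tail. Their median interaction was -1.52 between 1 and 2 (15 genes), -1.04 between 2 and 3 (10 genes) and -1.75 above 3 (19 genes). Without them the medians in the same ranges were 0.02, 0.21 and -0.01, over 324, 68 and 33 probe sets. All 46 core genes had an interaction below 0, 21 with HRA1 were called, and without HRA1 the median was -1.45. Outside the core list, 10 of the 419 probe sets called higher on average had a called interaction, with a median over the 419 of 0.03. The core marks come from a supplementary table that was itself partly selected with these arrays. The values describe that list and are not independent evidence.

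**Figure D4:**
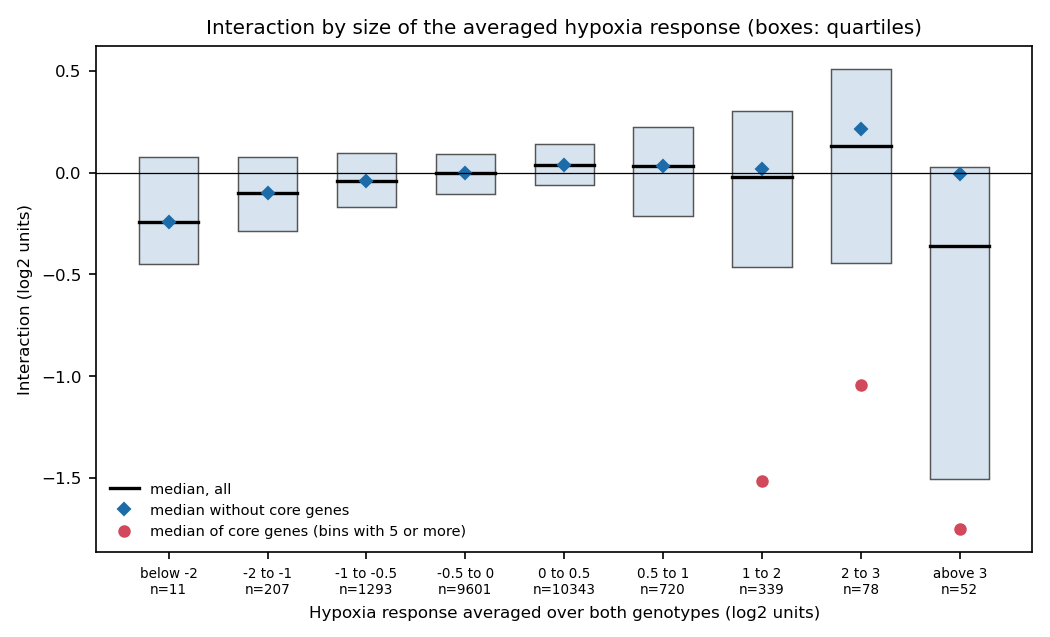
Interaction (log2 units) in ranges of the hypoxia response averaged over both genotypes, with boxes from the first to the third quartile, thick lines at the median of all probe sets, blue diamonds at the median without core genes and red circles at the median of core genes where a range holds 5 or more. The boxes narrow around 0 in the middle, and the red circles lie between -1.04 and -1.75 while the diamonds stay between -0.24 and 0.21.

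Counted by function, 10 of the 37 calls below 0 lay in 4 lists of known genes. Of 5 genes listed for oxygen sensing 3 were measured under an assigned name, and 3 of the 3 were called (median -1.95). The counts were 3 of 5 in sucrose cleavage and glycolysis (median -1.54), 2 of 4 in fermentation (median -2.05) and 2 of 8 in ethylene synthesis and signalling (median -0.32). Most of these genes were named only through the study's supplement, which lists differentially expressed genes, and 1 of the 10 calls was at a platform-named probe set, PDC2. The 0.163% of all probe sets called below 0 is therefore no matched background for these counts. The other 12 lists, with 52 members, held 0 calls and 12 members at an unadjusted p under 0.05. Over all probe sets 1296 of 22644 had such a p. Many of the 52 were also named only through the supplement, so that share is no matched background either. The 12 lists covered calcium, ROS and early stress (median -0.16), heat shock (-0.07), jasmonate (0.06), salicylic acid and defence (0.54), auxin response (-0.35), abscisic acid and drought (-0.05) and sugar starvation and dark-induced genes (-0.31). They also covered phosphate and iron status (0.90), flavonoid and anthocyanin synthesis (-0.35), alternative respiration (0.24), the circadian clock (-0.14) and root hairs (-0.17). AOX1A, the alternative oxidase that bypasses part of the respiratory chain, had responses of 0.81 in Col-0 and 1.76 in OE-HRA1 (interaction 0.94, adjusted p = 0.647). Of 5 root hair genes, 4 were called lower on average, against 0.958% of all probe sets. The platform table named 3 of the 5 and the supplement the others, so that share is no matched background. The interactions of the 5 lay between -0.44 and 0.02. The peroxidase gene PRX7 had responses of -1.95 and -2.16, and PRP3, a cell wall protein gene, -1.23 and -1.67. With 2 to 10 measured members each, these medians describe single genes more than functions.

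**Figure D5:**
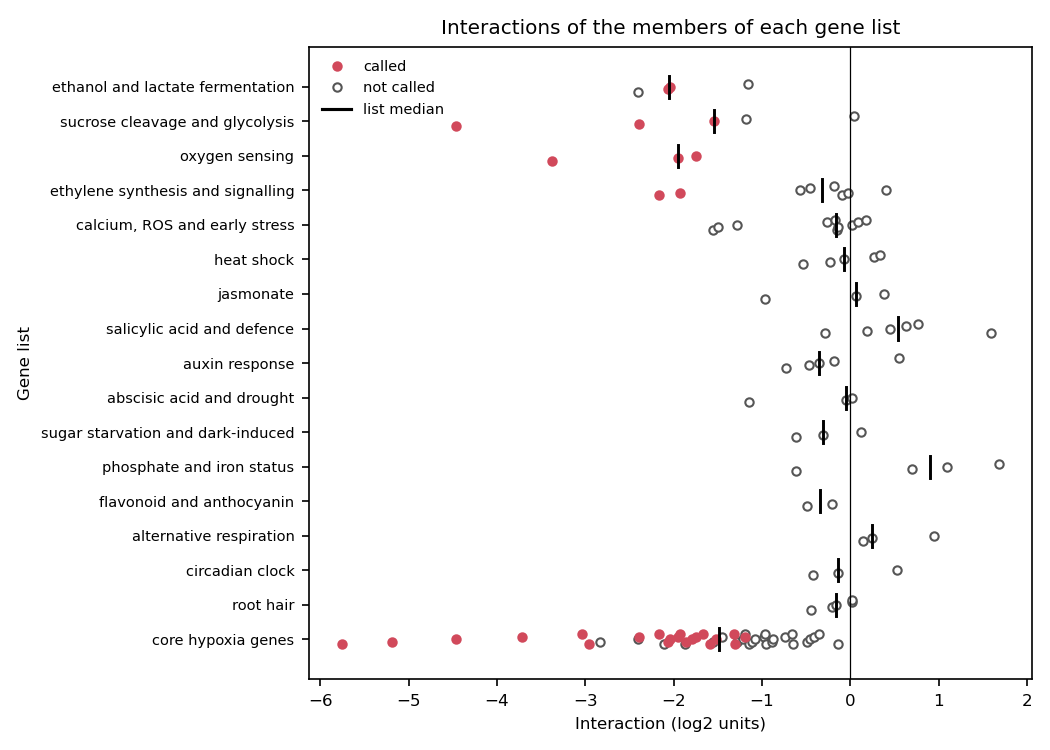
Interaction (log2 units) of each measured member of the gene lists, filled red where called and open where not, with a vertical line at each list's median. Filled points occur in 4 functional lists and among the core hypoxia genes, and the open points of the other lists lie between -1.55 and 1.68.

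Of the genes that the study discusses as bound by HRA1, few had an interaction. HUP7 (AT1G43800) had the largest besides HRA1 at -2.11, but its SE of 0.48 left it uncalled (adjusted p = 0.242). It read 8.85 and 9.26 in Col-0 air, 10.44 and 10.78 in Col-0 hypoxia, 7.10 and 6.97 in OE-HRA1 air and 5.88 and 7.08 in OE-HRA1 hypoxia, where the lines were far apart. CYP78A6, a cytochrome P450 of seed size control, had -1.13 (SE 0.19), not called (adjusted p = 0.078) and called with the replicate block within each genotype (0.00651). RAV1, WRKY7, AT1G31310 and DCL1 had interactions of -0.21, -0.28, -0.22 and 0.04, with SEs of 0.15 to 0.32.

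With 2 arrays per group, the median SE of an interaction was 0.14 and smaller differences can be missed. Since a lower level in whole seedlings can come from less transcript per cell or from fewer cells of a type, these cannot be told apart here.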

How the data were processed

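Total RNA of seedlings was hybridized to 8 Affymetrix ATH1 arrays. The deposited table holds log2 values that the authors had made with the robust multichip average (RMA), and processing notes also name MAS5, which the authors used for present calls. According to the methods, normalization included arrays of 35S:HA:RAP2.12 plants, and whether the deposited values come from that run is not stated. RMA sets the arrays to a common distribution, so a shift of most transcripts would not be seen. The number of arrays limits the precision, since no read depth exists.

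Values were used as given. Of all probe sets, 64 controls and 102 of organelle genes were dropped, which left 22644. The present-call filter was not repeated. The platform table named 13415 tested probe sets and the supplement 573, and 8656 had no single gene name. Groups were fitted with limma 3.58.1 in R 4.3.3, as 4 group means (residual degrees of freedom 4, prior 4.14), and p-values were adjusted by Benjamini-Hochberg over the 22644. Calls used the published limits, an SLR beyond 1 or -1 with an adjusted p under 0.01. The model and calls were tried on simulated data. The simulated arrays were independent, without pairing by line, so that trial cannot bear on the choice of a block.

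The members and lists were chosen with earlier results of these data known. Genes were named if they were among the 10 lowest or highest called interactions, named by the paper for these arrays, among the 4 list members with the lowest p or the 5 most affected of a class, or among the 5 most induced or repressed with an interaction within 0.2 of 0. The other called probe sets were added so that all are given.

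The OE-HRA1 air and hypoxia arrays are paired because they come from the same transgenic line. Their deviations from the group means correlated at 0.15, those of the Col-0 arrays of the same number at 0.37, and those across genotypes between -0.20 and 0.01. What the Col-0 number stands for is not stated. Alternatives were another filter, prior or normalization, blocks, thresholds, and leaving out arrays or lines. Promoter and protein sequences were not used here.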

Additional observations from a re-analysis of the deposited data

Results flagged for a closer look

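The interactions below are listed because the difference in hypoxia response between the genotypes itself passed the test. It was called below 0 for 37 probe sets and above 0 for 1. The largest were HRA1 (-5.75), AT5G10040 (-5.18), 267024_s_at (-4.83), SUS4 (-4.46), HUP36 (-3.72), HRE1 (-3.38), SRO5 (-3.03), PHI-1 (-2.96), PFK6 (-2.39) and ETR2 (-2.16). Interactions from -2.14 to -1.52 were found for RBOHB (-2.14), PDC2 (-2.06), ADH1 (-2.04), SAUR27 (-2.0), BEE1 (-1.99), EXLB2 (-1.97), PCO2 (-1.95), ACO1 (-1.93), UKL3 (-1.86), CYP96A9 (-1.85), HUP6 (-1.79), PCO1 (-1.75), AT5G42200 (-1.67), AT5G66985 (-1.59), PFK3 (-1.54) and AT5G44730 (-1.52). The smallest called were AT4G24110 (-1.49), AT2G44770 (-1.36), AT4G33560 (-1.31), PP2-A11 (-1.31), SAUR78 (-1.28), AT1G04770 (-1.25), AT3G02555 (-1.19), AT1G74940 (-1.19), GBF2 (-1.15), GAE1 (-1.10) and AT4G25620 (-1.05). CML41 was the 1 above 0 (1.33). The groups hold 2 arrays each, too few for a search for single outlying arrays.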

How the results depend on the processing

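With the replicate block within each genotype, 60 were called below 0 and 5 above, and 58 of the 60 and all 5 had an averaged response above 0. The other 2, AT5G10580 and CYP78A6, had responses above 0 in Col-0 and below 0 in OE-HRA1, and SR1, 1 of the 5, had the opposite signs. At an adjusted p under 0.05 there were 58 and 3, and the averaged response was above 0 for 57 of the 58 and for the 3, and below 0 for 1, AT5G10580. Among the 60% of probe sets with the highest mean signal, 0 were called above 0, since CML41 is too dim to enter. With the replicate number as a block shared by both genotypes, 25 were called below 0 and 1 above, and 24 of the 38 calls were kept. The labels tie no Col-0 number to a line. Leaving out an array or a line gave 1 to 29 calls below 0, and 0 to 5 above 0. Of those below 0, 1 to 28 had an averaged response above 0 and 0 to 1 below it, with fewer residual degrees of freedom in every such fit. In these fits the median interaction ran from -0.13 to 0.044 over probe sets called higher on average, from -0.22 to -0.043 over those called lower, and from -0.47 to -0.22 above an averaged response of 3. After median centring the first was 0.034 and the last -0.26. Quantile normalization run again and median centring each kept 30 of the 38 calls. Centring ended those of RBOHB, SAUR27, SAUR78, GBF2, PP2-A11, AT4G24110, AT1G74940 and AT4G25620. Of 1934 values of single named genes under the alternatives, 1584 kept their side of the thresholds, 317 lost a call, 33 gained one and 0 of the called values changed sign. Leaving out arrays or lines could not change the sign of a called value, because the differences of the genotypes did not overlap. With 2 arrays per group, a call lost at a nearly unchanged value does not show a weaker effect.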
